A study of Mus musculus with 8 samples.

Results

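Wide ASXL1 domains are places on the mouse autosomes where 1 unbroken interval of ASXL1 chromatin immunoprecipitation signal spans at least 20000 bp. The intervals are islands, the enriched runs of 200 bp windows that the peak caller reports, and they come from the ASXL1 library of wild-type mesenchymal stem and progenitor cells (MSPCs). Of 17065 autosomal ASXL1 islands, 448 reached that width (2.63%), and with the X chromosome the library held 17419 islands in all. The 448 domains sum to 13.3 Mb, which is 12.5% of the autosomal bases under ASXL1. Their median width was 25.6 kb, against 4.8 kb over all autosomal islands, and the widest spanned 215.8 kb. The domains were chosen by their width in wild type, so widths are given here as a description only. Of the domains, 11 lie on chromosome 9 between 7 and 10 Mb and are shown apart from the other 437.

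The series compared Asxl1-/- MSPCs with wild-type MSPCs by sequencing of immunoprecipitated chromatin. Both kinds of cells were grown from bone marrow of mice on a C57BL/6 background, kept in culture to between passage 5 and passage 10, and fixed with formaldehyde. H3K4me2, H3K4me3 and H3K27me3 were mapped in Asxl1-/- and in wild-type cells, and ASXL1 itself in wild-type cells only. There is 1 library for each target and genotype, so differences have no replicate check, no test was made, and every value describes these libraries. The labels do not say how Asxl1 was deleted, how many animals gave cells or whether cultures were pooled. ASXL1 was not mapped in Asxl1-/- cells, so signal that the antibody gives without its target is not known. An input library of MSPCs with no stated genotype was not analysed here.

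ASXL1 is a chromatin protein of the Polycomb and Trithorax field. It partners the deubiquitinase BAP1, which takes ubiquitin off a core histone, and it has been tied both to the Polycomb mark H3K27me3 and to methylation of H3K4. H3K4me3 sits at the starts of active or poised genes, H3K4me2 spreads over promoters and enhancers, and H3K27me3 covers genes silenced by Polycomb. Broad runs of H3K4 methylation are common at genes that set the identity of a cell, such as those for master transcription factors and for matrix proteins in stromal cells.

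The lists hold start and end positions without read counts, so sequencing depth is unknown, and the measure used is the covered share, the percentage of a domain's bases inside islands of a mark. In such bulk samples, a mark in fewer cells and less of it per cell cannot be told apart. The libraries held between 15276 and 36048 islands, and H3K4me2 covered 129.0 Mb in Asxl1-/- cells and 138.9 Mb in wild type, H3K4me3 72.4 Mb and 68.4 Mb, and H3K27me3 232.9 Mb and 214.5 Mb in the same order. At Asxl1 itself H3K4me3 islands covered 5.97 kb of the gene in Asxl1-/- cells and 4.57 kb in wild type, and H3K27me3 islands 17.0 kb and 0 kb, so these lists do not show the deletion. H3K4me3 lay on 22 of 24 stromal progenitor genes in Asxl1-/- cells and on 23 in wild type, on 4 of 11 autosomal blood cell markers in each genotype, on 2 of 10 endothelial markers in each, and on 1 of 8 epithelial markers in Asxl1-/- cells and 3 in wild type. H3K4me3 was therefore on a larger share of the stromal list than of the lists of the other cell types that the cultures could hold. The share of all genes with H3K4me3 is not given here, so these lists are compared only with each other. No blood, endothelial or epithelial marker lay in a wide domain. Only 2.93% of all autosomal protein-coding genes did, so finding none in lists this short says little.

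The promoters of the widest domains, chosen by domain width, are printed first. In each of them the width of the H3K4me3 island over the start, as deposited, differed between the genotypes by at least 6 kb. They belong to the 6 widest domains outside the chromosome 9 region whose genes have a promoter in the RefSeq table (GRCm38.p6, the same coordinates as mm10), and to the widest domain inside it. Each window runs 5′ to 3′ from 250 bases before to 50 after the start, and capitals mark each C followed by a G, the pairs that make up CpG islands. The Lmna and Nfix windows lie at starts inside the gene, since both gene bodies run on upstream of them.
Yap1 promoter, chr9:8004547-8004846, minus strand: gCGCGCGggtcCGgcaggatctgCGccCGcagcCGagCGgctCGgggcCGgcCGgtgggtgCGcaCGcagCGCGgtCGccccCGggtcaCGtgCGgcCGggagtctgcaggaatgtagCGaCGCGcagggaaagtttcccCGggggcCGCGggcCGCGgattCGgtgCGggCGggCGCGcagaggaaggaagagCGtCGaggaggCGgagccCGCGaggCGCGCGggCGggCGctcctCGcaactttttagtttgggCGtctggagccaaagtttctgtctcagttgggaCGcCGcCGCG
Vgll3 promoter, chr16:65814939-65815238, plus strand: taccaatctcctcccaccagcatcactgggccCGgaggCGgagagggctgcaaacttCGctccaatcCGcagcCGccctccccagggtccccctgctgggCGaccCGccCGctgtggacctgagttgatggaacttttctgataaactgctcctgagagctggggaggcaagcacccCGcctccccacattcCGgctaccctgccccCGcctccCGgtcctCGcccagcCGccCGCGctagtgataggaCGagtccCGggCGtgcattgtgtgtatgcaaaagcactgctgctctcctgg
Lmna promoter, chr3:88493263-88493562, minus strand: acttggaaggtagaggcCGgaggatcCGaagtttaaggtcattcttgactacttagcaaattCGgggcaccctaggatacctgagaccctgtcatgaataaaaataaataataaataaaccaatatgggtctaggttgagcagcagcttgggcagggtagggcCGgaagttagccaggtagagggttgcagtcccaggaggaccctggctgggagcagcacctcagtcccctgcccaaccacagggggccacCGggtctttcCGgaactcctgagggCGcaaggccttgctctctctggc
Malat1 promoter, chr19:5802623-5802922, minus strand: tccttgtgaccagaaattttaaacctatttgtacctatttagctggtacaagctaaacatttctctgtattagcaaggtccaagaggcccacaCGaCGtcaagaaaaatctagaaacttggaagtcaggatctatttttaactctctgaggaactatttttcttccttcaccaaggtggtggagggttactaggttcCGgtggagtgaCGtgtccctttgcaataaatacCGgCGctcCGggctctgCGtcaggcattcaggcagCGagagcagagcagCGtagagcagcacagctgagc
Lncppara promoter, chr15:85703523-85703822, plus strand: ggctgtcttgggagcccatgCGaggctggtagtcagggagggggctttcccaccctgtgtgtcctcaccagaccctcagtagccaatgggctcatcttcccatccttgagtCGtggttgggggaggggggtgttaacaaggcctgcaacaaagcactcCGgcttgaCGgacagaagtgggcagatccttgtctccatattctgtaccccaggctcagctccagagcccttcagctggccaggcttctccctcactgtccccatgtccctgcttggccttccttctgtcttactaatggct
Nfix promoter, chr8:84780033-84780332, minus strand: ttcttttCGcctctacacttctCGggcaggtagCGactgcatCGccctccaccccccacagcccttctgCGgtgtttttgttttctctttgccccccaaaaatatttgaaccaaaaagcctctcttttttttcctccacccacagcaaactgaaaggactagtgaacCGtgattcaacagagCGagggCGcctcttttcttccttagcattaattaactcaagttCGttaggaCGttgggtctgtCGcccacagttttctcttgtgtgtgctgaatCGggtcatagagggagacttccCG
Cwc22 promoter, chr2:77946307-77946606, minus strand: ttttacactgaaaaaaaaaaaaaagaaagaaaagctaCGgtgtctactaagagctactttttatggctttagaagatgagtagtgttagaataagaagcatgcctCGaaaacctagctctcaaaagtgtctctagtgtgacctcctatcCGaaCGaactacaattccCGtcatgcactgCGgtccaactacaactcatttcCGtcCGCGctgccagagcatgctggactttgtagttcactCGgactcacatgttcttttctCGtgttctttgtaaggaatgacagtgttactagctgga

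Yap1, whose product is the coactivator of the Hippo pathway, has a window dense in CpG, with 49 in 300 bases and 74.0% G or C. The window of Lncppara, a long noncoding RNA that hosts let-7 microRNAs, holds 4. All 7 windows lay wholly inside H3K4me2 islands in both genotypes. The H3K4me3 island over the Yap1 start spanned 6.4 kb in Asxl1-/- cells and 12.4 kb in wild type. Over Vgll3, a cofactor of TEAD transcription factors, it spanned 8.4 kb in Asxl1-/- cells and 20.8 kb in wild type. Over the printed internal start of Lmna, which encodes the nuclear lamins A and C, it spanned 9.2 kb in Asxl1-/- cells and 30 kb in wild type. H3K4me3 over the whole Lmna gene came to 22.3 kb in Asxl1-/- cells and 26.1 kb in wild type. These 3 starts kept the mark in both genotypes, with a shorter island in Asxl1-/-. The island over the printed internal start of Nfix, a nuclear factor I transcription factor, spanned 19 kb in Asxl1-/- cells and 34.6 kb in wild type. Cwc22, a splicing factor, had 8.4 kb in Asxl1-/- cells and 30.6 kb in wild type. Lncppara had no H3K4me3 island over its start in Asxl1-/- cells and one of 6.0 kb in wild type. Over Malat1, an abundant nuclear long noncoding RNA, it was wider in Asxl1-/-, with 28.4 kb there and 14.4 kb in wild type. Breaks between islands decide some of these widths. With islands joined across gaps of up to 600 bp, an alternative chosen after seeing the data, Malat1 had 33 kb in Asxl1-/- cells and 60.6 kb in wild type, the opposite order, and Lmna 24.6 kb in Asxl1-/- cells and 33 kb in wild type. Joining left the Yap1, Vgll3 and Cwc22 widths as they were. These 7 starts stand for the widest domains only, and over all starts inside domains the balance was different, as given further on.

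Over 432 promoter windows of 339 protein-coding genes that lie wholly inside wide domains, the median number of CpG was 20, against 23 over 9819 windows in any ASXL1 island and 14 over all 20085 autosomal windows of the table. Exact matches to 5 short motifs were looked for on either strand, and no motif is part of another. The TATA box, TATAAA, was in 6.02% of the windows in wide domains, against 5.98% in any ASXL1 island and 12.7% of all windows. The GC box, spelled GGGCGG, was in 68.1% of windows in wide domains, in 68.1% in any island and in 47.0% of all. The core of a TEAD site, spelled GGAATG, was in 13% in wide domains, 11.3% in any island and 13.4% of all. The CCAAT box was in 34.3% of windows in wide domains, 38% in any island and 38.1% of all. The E-box CACGTG was in 10.6% of windows in wide domains, 10.7% in any island and 7.89% of all. The windows of wide domains thus hold these letters about as often as those of other ASXL1 islands. Among the printed windows, GGAATG occurs in those of Yap1, Vgll3 and Cwc22.

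Some microRNA families lie in more than 1 domain, and for 4 shared seeds (bases 2 to 8, in capitals) the mature sequences are printed here.
let-7b-5p: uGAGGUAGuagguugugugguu
let-7c-5p: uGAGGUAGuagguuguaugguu
let-7e-5p: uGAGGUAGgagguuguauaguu
miR-196a-5p: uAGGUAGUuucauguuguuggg
miR-196b-5p: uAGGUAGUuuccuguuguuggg
miR-24-3p: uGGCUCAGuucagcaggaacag
miR-27a-3p: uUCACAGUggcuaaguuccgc
miR-27b-3p: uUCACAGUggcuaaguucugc

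In all, 53 microRNA genes overlapped 38 domains, which is 4.67% of the 1136 autosomal microRNA genes, while any ASXL1 island overlapped 23.1% of them. Mature sequences were found for 50 of these genes, 87 in all, and 6 seeds occurred in at least 2 domains. The remaining 2 belong to miR-3074-5p and to the 5p arms of miR-24, in the same pair of domains as miR-24-3p. The let-7 family, which holds back growth genes in many tissues, lies in the 67.4 kb Lncppara domain on chromosome 15 (chr15:85650000-85717399, with let-7b and let-7c-2) and beside miR-99b and miR-125a in a 26.6 kb domain on chromosome 17. H3K4me3 covered 69.4% of the Lncppara domain in Asxl1-/- cells and 77.7% in wild type, and 57.9% of the chromosome 17 domain in Asxl1-/- cells and 63.2% in wild type. The miR-196 genes lie inside the Hox clusters described below. The clusters of miR-23, miR-27 and miR-24 differed from each other. The chromosome 8 copy lies in a 44.6 kb domain with H3K4me3 on 44.8% of it in Asxl1-/- cells and 48.4% in wild type, and the chromosome 13 copy in a 29.8 kb domain with no H3K4me3 in either genotype and H3K4me2 on 18.1% in Asxl1-/- cells and 47.0% in wild type. Mir21a, a microRNA of fibrosis and growth, lies with Vmp1 and Tubd1 in a 51.2 kb domain, where H3K4me3 covered 43.0% in Asxl1-/- cells and 50.4% in wild type. Mir143 and Mir145a, which are known from smooth muscle, lie with their host Carmn in a 44.0 kb domain on chromosome 18, where H3K4me3 covered 74.5% in Asxl1-/- cells and 38.6% in wild type.

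Most wide domains carried H3K4me2 and H3K4me3 and little H3K27me3. Besides the chromosome 9 region, 16 domains on chromosome 16 between 65 and 81 Mb had few marks. Those limits were set after the values had been seen, and the 421 domains outside both regions are described first. H3K4me2 covered a median 68.7% of these domains in Asxl1-/- cells (quartiles 48.5 and 87.6) and 76.5% in wild type (quartiles 62.9 and 89.1). H3K4me3 covered a median 33.9% in Asxl1-/- cells (quartiles 9.65 and 62.7) and 38% in wild type (quartiles 19.4 and 56.6). The spread among domains was thus wider in Asxl1-/- cells, with 89 domains at 0 for H3K4me3 there and 43 in wild type, and 8 domains inside 1 H3K4me3 island there and 0 in wild type. Of 2017 ASXL1 islands of 10 to under 20 kb, 710 were at 0 in Asxl1-/- cells and 487 in wild type. H3K4me3 covered 73 of them fully in Asxl1-/- cells and 16 in wild type. All autosomal ASXL1 islands leaned the same way, so this is not particular to wide domains. The median for H3K27me3 was 0 in both genotypes, and 369 of the 421 domains (87.6%) held none in either. That share was 88% over all autosomal ASXL1 islands and 87.1% over islands of 10 to under 20 kb, so it is not particular to wide domains. Over islands of 10 to under 20 kb, the next width class, the medians were 66.0% in Asxl1-/- cells and 76.4% in wild type for H3K4me2, and 37.9% and 40.4% in the same order for H3K4me3. Over all autosomal ASXL1 islands they were 78.9% in Asxl1-/- cells and 87.5% in wild type for H3K4me2, and 61.1% and 62.5% for H3K4me3.

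**Figure D1:**
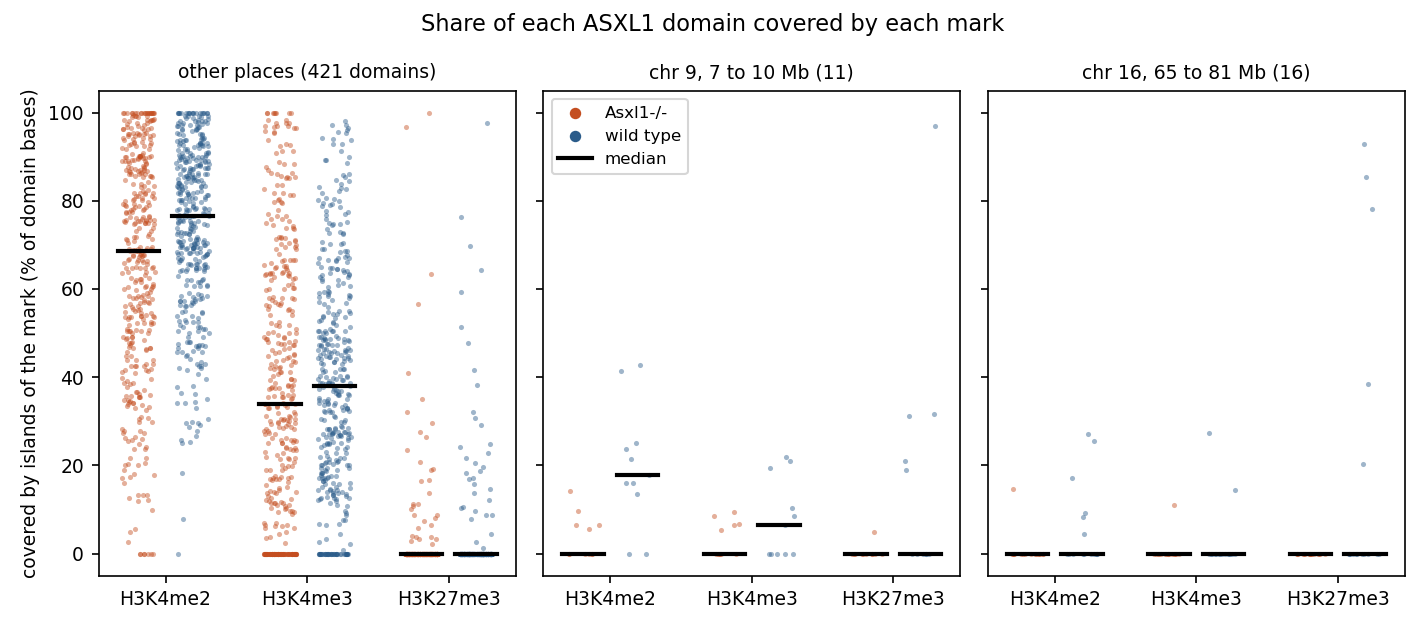
Share of each wide ASXL1 domain covered by islands of H3K4me2, H3K4me3 and H3K27me3 (vertical axis, percent of domain bases) in Asxl1-/- (left of each pair) and wild type, 1 point per domain and 1 library per column, with black bars at the medians; the panels hold the 421 domains elsewhere, the 11 on chromosome 9 and the 16 on chromosome 16. Elsewhere the H3K4me2 medians are 68.7% and 76.5%, while on chromosome 9 they are 0% and 17.7%.

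A domain was called different when its covered share was at least 20 percentage points higher or lower in Asxl1-/- than in wild type. By that rule H3K4me2 was higher in 20 of the 448 domains and lower in 102. That is 4.46% and 22.8% of domains (95% exact Clopper-Pearson intervals 2.75 to 6.81 and 19 to 26.9, counting error only), and the same rule called 4.59% and 24.6% of all autosomal ASXL1 islands and 5.06% and 25.4% of islands of 10 to under 20 kb. H3K4me3 was higher in 45 domains (10.0%) and lower in 53 (11.8%), against 7.42% and 12.2% of all autosomal islands and 8.28% and 13.1% of islands of 10 to under 20 kb. H3K27me3 was higher in 9 domains (2.01%) and lower in 20 (4.46%), against 2.57% and 4.44% of all islands and 2.97% and 3.67% of islands of 10 to under 20 kb. The wide domains were therefore called about as often as ASXL1 islands of any width. The count of 20 domains with lower H3K27me3 rests partly on both chromosome regions, since outside them it was 11 of 421 (2.61%). Looked at by presence alone, H3K4me3 was found in 4 of the 421 domains in Asxl1-/- only (0.95%) and in 50 in wild type only (11.9%), against 1.12% and 9.83% of all islands. H3K4me2 was found in 1 domain in Asxl1-/- only and in 7 in wild type only, against 0.856% and 11.1% of all islands. H3K27me3 was found in 17 domains in Asxl1-/- only (4.04%) and in 18 in wild type only (4.28%), against 2.76% and 4.2% of all islands.

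The marks were highest in the middle of the domains and lower at their edges. In the 4 middle bins of 20 along the 421 domains H3K4me2 covered a mean 72.6% in Asxl1-/- cells and 82.1% in wild type, and in the 2 outermost bins at each end 46.8% in Asxl1-/- cells and 53.8% in wild type. H3K4me3 covered 41.4% of the middle in Asxl1-/- cells and 46.4% in wild type, but 25.5% of the outermost bins in Asxl1-/- cells and 22.3% in wild type. Just outside the left edge it covered 13.2% in Asxl1-/- cells and 6.97% in wild type, and just outside the right edge 10.6% in Asxl1-/- cells and 6.47% in wild type. The H3K4me3 profile was thus flatter in Asxl1-/- cells, lower in the middle and higher at and past the edges. The same holds for islands of 10 to under 20 kb, where the middle stood at 47.4% in Asxl1-/- cells and 51.1% in wild type and the left flank next to the edge at 13.5% and 8.82%. The edges are those of wild-type ASXL1, so anything that the wild-type libraries have in common enters the choice and cannot be told apart from the genotype. H3K27me3 ran the opposite way, at 0.825% of the middle in Asxl1-/- cells and 1.70% in wild type, with means over the right flank of 8.15% in Asxl1-/- cells and 8.07% in wild type.

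**Figure D2:**
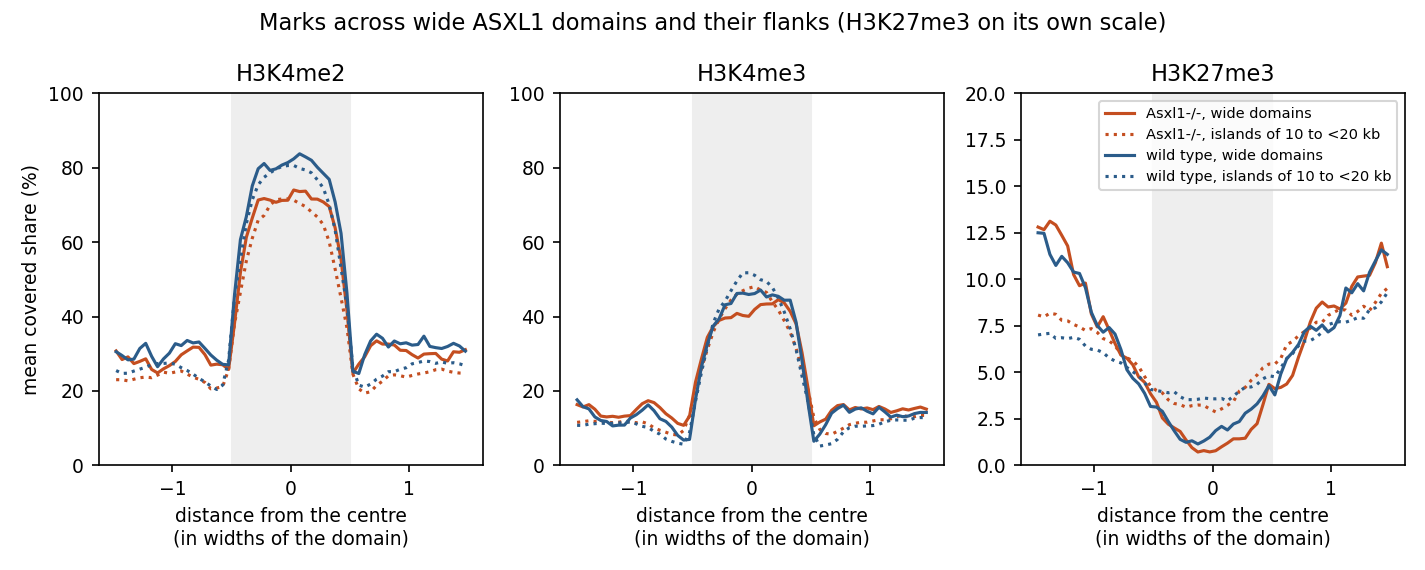
Mean covered share (vertical axis, percent) of H3K4me2, H3K4me3 and H3K27me3 by distance from the centre in domain widths (horizontal axis; grey, inside the domain), for Asxl1-/- and wild type over the 421 wide domains (solid) and over islands of 10 to under 20 kb (dotted). H3K4me3 stands at 41.4% in Asxl1-/- and 46.4% in wild type in the middle, and the order turns round at the edges.

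By base, the 421 domains were made up mainly of 3 states. H3K4me2 with H3K4me3 held 36.1% of bases in Asxl1-/- cells and 37.8% in wild type, H3K4me2 alone 29.2% in Asxl1-/- cells and 34.8% in wild type, and no mark 32.1% in Asxl1-/- cells and 24.8% in wild type. H3K4me2 alone and unmarked sequence account for most of the difference. All 3 marks together held 0.371% of bases in Asxl1-/- cells and 0.890% in wild type. A domain typically held 2 H3K4me2 islands in each genotype, and 22 domains in Asxl1-/- and 19 in wild type lay inside 1 H3K4me2 island. Col1a1, which encodes a chain of type I collagen, the main protein of bone matrix, lies in such a domain. It spans 25.2 kb (chr11:94926400-94951599), with H3K4me2 on 100% in both genotypes and H3K4me3 on 100% in Asxl1-/- cells and 96.0% in wild type.

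Many domains reach into genes from their starts. Protein-coding gene bodies held 64.7% of the domains' bases, and 606 protein-coding genes overlapped a domain (2.93% of 20665 autosomal genes, while any ASXL1 island overlapped 54.7%). Of the 606, 250 lay wholly inside and 339 had a start of the promoter table inside, which holds no start for some genes. A protein-coding start was present in 212 domains (47.3%, against 43.3% of all autosomal ASXL1 islands), 70 domains met no protein-coding gene (15.6%, against 22.0%), and 96 lay within 1 gene body. Long noncoding RNA genes met domains in 215 cases (1.73% of 12408, against 24.1% for any ASXL1 island). In 134 domains with a single protein-coding start, a median 6.02 kb lay before the start and 18.6 kb after it, and in 104 of them (77.6%) the longer part was downstream. Some of the 134 starts lie inside their gene, as at Nfix, Sbno2 and Triobp, so sequence before a start can be gene body. The gene table gives no exons, so exon, intron and untranslated region were not assigned. In the 114 of those domains that reach at least 10 kb downstream, H3K4me3 covered a mean 93.5% of the first 2 kb in Asxl1-/- cells and 95% in wild type, and 39.8% from 8 to 10 kb in Asxl1-/- cells and 38.4% in wild type. H3K4me2 covered 98.2% of the first 2 kb in Asxl1-/- cells and 97.2% in wild type, and 78.4% from 8 to 10 kb in Asxl1-/- cells and 83.1% in wild type. H3K4me3 therefore thinned along the gene more than H3K4me2 did, in both genotypes.

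The start itself was rarely where genotypes differed. H3K4me3 lay over the starts of 319 of the 339 genes in each genotype, with 4 in Asxl1-/- only and 4 in wild type only. Over the 315 starts with the mark in both, the median island was 10.8 kb in Asxl1-/- cells and 9.8 kb in wild type, wider in Asxl1-/- at 207 starts and narrower at 98. At starts in islands of 10 to under 20 kb the medians were 8.2 kb in Asxl1-/- cells and 7.6 kb in wild type. H3K4me2 islands over the starts ran the other way, with a median of 13.7 kb in Asxl1-/- cells and 15.7 kb in wild type, narrower in Asxl1-/- at 196 of 326 starts and wider at 122. Over starts in any ASXL1 island H3K4me2 was narrower at 4914 of 8095 and wider at 2690, and H3K4me3 wider at 4852 of 8075 and narrower at 2706, so both balances are those of ASXL1 islands at large. H3K27me3 lay over 12 starts in Asxl1-/- cells (3.54%) and 23 in wild type (6.78%), against 5.41% in Asxl1-/- cells and 8.61% in wild type over starts in any ASXL1 island. Where a domain held a protein-coding start of the table (205 of the 421), median H3K4me3 was 52.2% in Asxl1-/- cells and 50% in wild type. Domains with a gene body but no start of the table (158) had 14.1% in Asxl1-/- cells and 24.1% in wild type, but 20 of these hold a whole gene and so a start that the table lacks, with 49.5% in Asxl1-/- cells and 44.96% in wild type. In the 81 domains whose genes all have their starts in the table and outside the domain, the median was 4.88% in Asxl1-/- cells and 20.5% in wild type. The 58 domains with no protein-coding gene had 0% in Asxl1-/- cells and 16.8% in wild type. Median H3K4me3 was thus lower in Asxl1-/- cells in the domains whose known starts lie elsewhere and in those with no protein-coding gene. H3K4me2 medians were 78.9% in Asxl1-/- cells and 81.7% in wild type with a start, 57.8% in Asxl1-/- cells and 73.5% in wild type in the 81 domains, and 48.8% in Asxl1-/- cells and 65.1% in wild type with no protein-coding gene.

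The 12 widest domains outside the chromosome 9 region spanned 61.0 to 91.4 kb and showed very different mark content. Malat1 and Neat1, long noncoding RNAs of nuclear speckles and paraspeckles, share a 68.8 kb domain with Frmd8 (chr19:5791800-5860599). H3K4me2 covered 95.1% of it in Asxl1-/- cells and 87.8% in wild type, and H3K4me3 86.3% in Asxl1-/- cells and 85.8% in wild type, so it was nearly full of both marks. The Lmna domain (chr3:88472600-88545799, 73.2 kb, with Mex3a, Rab25 and Mir1905) had H3K4me2 on 66.1% in Asxl1-/- cells and 87.4% in wild type, and H3K4me3 on 50.3% in Asxl1-/- cells and 66.9% in wild type. The 66.8 kb Nfix domain (chr8:84732800-84799599) lay wholly in H3K4me2 in wild type (100%) and to 90.1% in Asxl1-/-, with H3K4me3 on 51.5% in Asxl1-/- cells and 83.2% in wild type. A 63.0 kb domain over Niban2, a gene for a focal adhesion-linked protein, and Lrsam1, a ubiquitin ligase gene, had H3K4me3 on 38.1% in Asxl1-/- cells and 47.9% in wild type. These domains hold promoters, and in others of the widest H3K4me3 covered only a small share. An 88.8 kb domain on chromosome 2 without a named gene (chr2:167751400-167840199) had H3K4me2 on 64.9% in Asxl1-/- cells and 69.4% in wild type but H3K4me3 on only 6.53% in Asxl1-/- cells and 16.4% in wild type. Galnt2, which encodes an enzyme that starts O-linked glycans, lies under a 66.6 kb domain with nearly the same pattern, at 67.6% and 69.4% for H3K4me2 and 6.91% and 16.5% for H3K4me3. Ergic1, a gene of transport between endoplasmic reticulum and Golgi, had H3K4me2 on 42.6% of its 61.0 kb domain in Asxl1-/- cells and 52.5% in wild type, and H3K4me3 on 0% in Asxl1-/- cells and 3.28% in wild type.

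**Figure D3:**
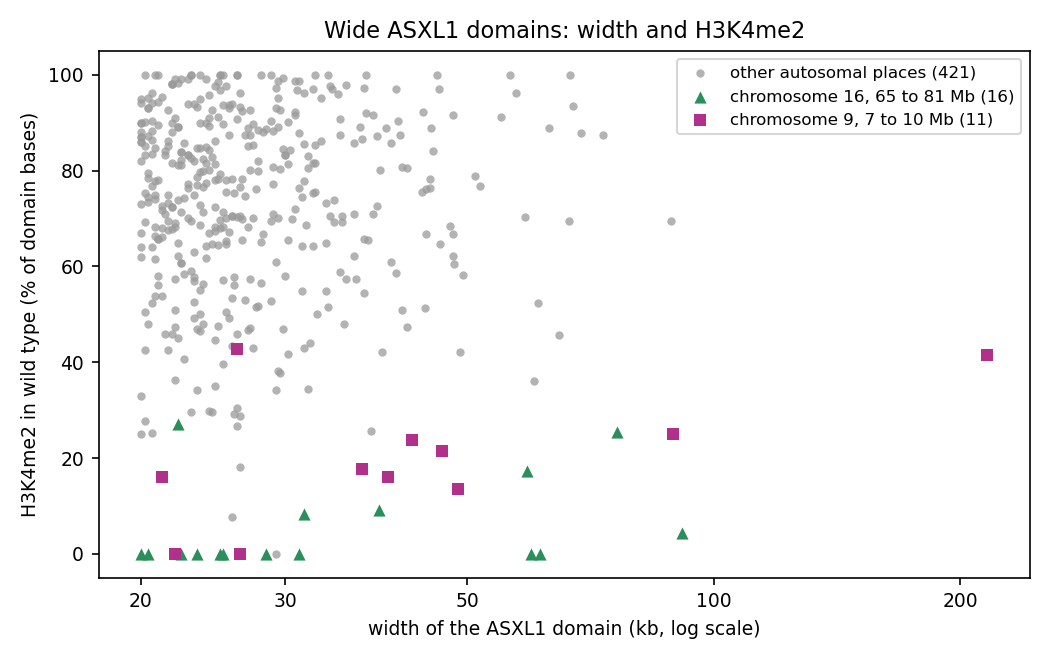
Width of each wide ASXL1 domain (horizontal axis, kb, log scale) against the share of it covered by H3K4me2 in wild type (vertical axis, percent), 1 point per domain. Squares are the 11 domains on chromosome 9 from 7 to 10 Mb and triangles the 16 on chromosome 16 from 65 to 81 Mb, all at or below 42.7%, and the other 421 have a median of 76.5%.

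Only 14 domains had H3K4me2 on less than 5% of their length in wild type. Of these, 11 lie on chromosome 16 between 65 and 81 Mb and 2 on chromosome 9 between 7 and 10 Mb, and the remaining domain is over Fn1, the gene for fibronectin, a matrix glycoprotein of stromal cells. The Fn1 domain spans 29.2 kb (chr1:71608000-71637199) and had H3K4me2 on 4.79% in Asxl1-/- cells and 0% in wild type, with no H3K4me3 or H3K27me3 in either genotype. The domain lies inside the gene body and reaches neither end of the gene.

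On chromosome 9 between 7 and 10 Mb, ASXL1 islands covered 727.6 kb (24.3% of the interval), against 2.54% of the rest of the chromosome. The 11 domains there made up 616.2 kb of that. H3K4me2 covered 67.8 kb of the interval in Asxl1-/- cells and 209.6 kb in wild type, H3K4me3 40.2 kb in Asxl1-/- cells and 101.2 kb in wild type, and H3K27me3 9.2 kb in Asxl1-/- cells and 123.6 kb in wild type. Over the rest of chromosome 9 each mark covered more in Asxl1-/- cells, with 6662 kb and 5543 kb for H3K4me2, 3714 kb and 2883 kb for H3K4me3, and 12806 kb and 8243 kb for H3K27me3, Asxl1-/- first. The interval therefore combines dense ASXL1 in wild type with less of every mark in Asxl1-/-. The lists hold no measure of DNA copy number in either genotype, here or on chromosomes 16 and 2 below, and its part in island cover was not tested.

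The widest domain of all, 215.8 kb (chr9:7811400-8027199), covers Birc2 and Birc3, which encode inhibitors of apoptosis, Yap1, and Cfap300, a gene of cilia. H3K4me2 covered 9.64% of it in Asxl1-/- cells and 41.4% in wild type, H3K4me3 6.67% in Asxl1-/- cells and 19.4% in wild type, and H3K27me3 none in either. In wild type 7 H3K4me2 islands fell in the domain, and in Asxl1-/- cells 4. Pgr, the progesterone receptor gene, lies in an 89.2 kb domain with H3K4me2 on 5.61% in Asxl1-/- cells and 25.1% in wild type, and H3K27me3 on 4.93% in Asxl1-/- cells and 31.6% in wild type. Tmem123, a membrane protein gene, with Mir5618, had H3K4me3 on 9.44% of its 46.6 kb domain in Asxl1-/- cells and 21.9% in wild type. Arhgap42, which encodes a GTPase-activating protein of smooth muscle, had neither H3K4 mark in Asxl1-/- cells and H3K4me2 on 23.8% and H3K4me3 on 21.0% of its 42.8 kb in wild type. The matrix metalloproteinase genes Mmp8 and Mmp27 (26.2 kb) and Mmp20 (37.2 kb) had no H3K4me2 in Asxl1-/- cells and 42.7% and 17.7% in wild type. Cep126, a centrosome gene, has 2 domains, of which the 40 kb one held H3K4me2 on 6.50% in Asxl1-/- cells and 16% in wild type, H3K27me3 on 0% in Asxl1-/- cells and 21% in wild type, and H3K4me3 on 6.50% in each, and the 22.0 kb one held no mark in either. Trpc6, a calcium channel gene, had H3K4me2 on 14.2% of 21.2 kb in Asxl1-/- cells and 16% in wild type. A 48.8 kb domain without a named gene had H3K4me2 on 0% in Asxl1-/- cells and 13.5% in wild type, and a 26.4 kb one had H3K27me3 on 0% in Asxl1-/- cells and 97.0% in wild type. None of the 11 domains had a higher share of any mark in Asxl1-/- cells, with H3K4me2 lower in 9 and equal in 2, H3K4me3 lower in 5 and equal in 6, and H3K27me3 lower in 5 and equal in 6. Over all 17065 autosomal ASXL1 islands H3K4me2 was higher in 3285, lower in 8205 and equal in 5575. H3K4me3 was higher in 4201 of them, lower in 4454 and equal in 8410. H3K27me3 was higher in 656, lower in 1030 and equal in 15379.

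**Figure D4:**
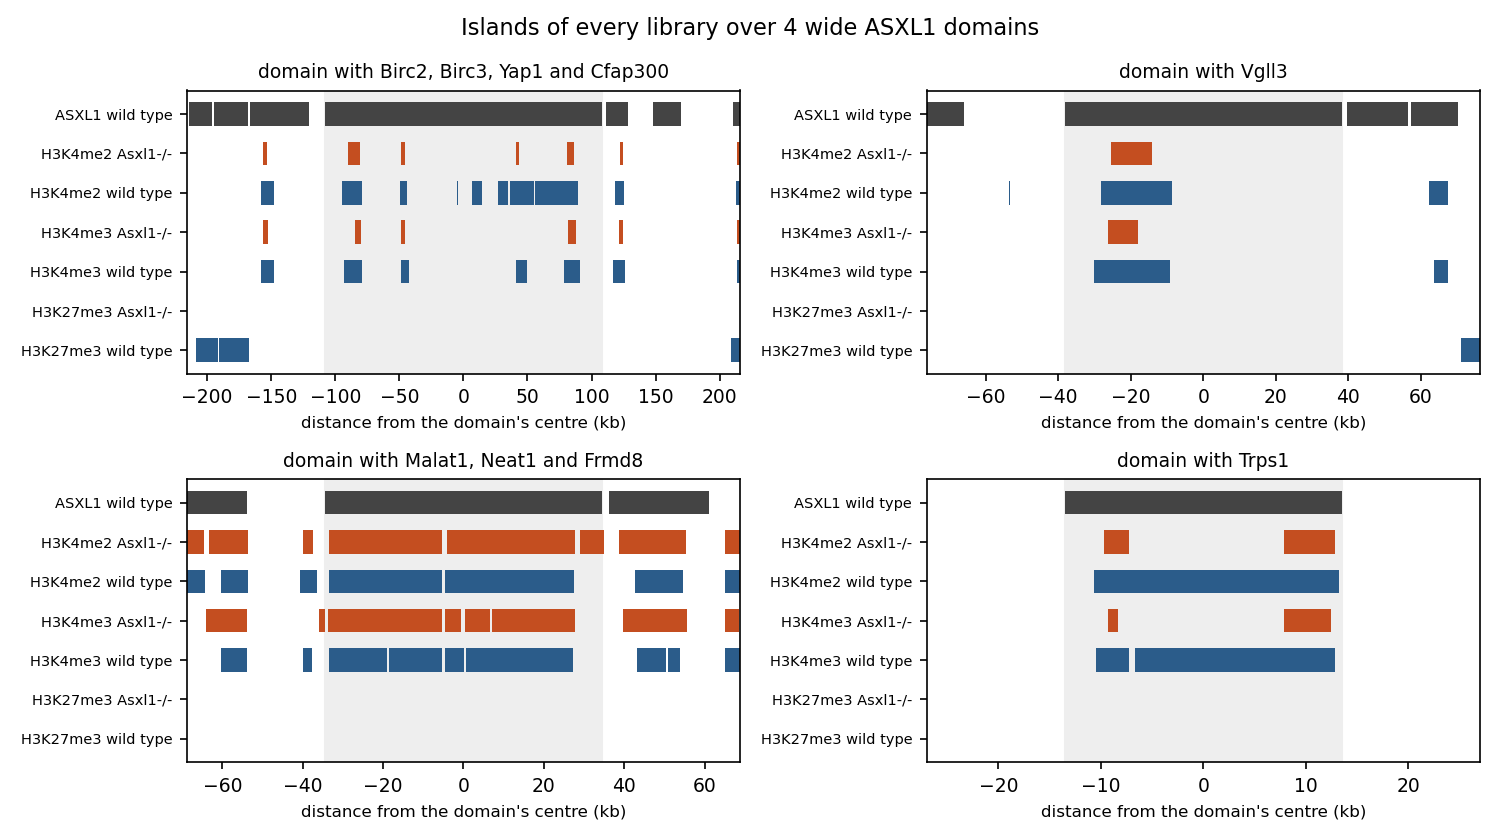
Islands of every library (rows; black ASXL1 in wild type, orange Asxl1-/-, blue wild type) over 4 wide domains (grey) and their flanks, by distance from the domain's centre in kb. In the Yap1 domain 4 H3K4me2 islands fall in Asxl1-/- and 7 in wild type, the Malat1 domain is nearly full in both, and the Trps1 domain holds H3K4me3 on 20.7% in Asxl1-/- and 84.4% in wild type.

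None of the 16 domains on chromosome 16 between 65 and 81 Mb had a higher share of any mark in Asxl1-/- cells either. ASXL1 covered 1139 kb of the interval (7.12%, against 4.05% of the rest of chromosome 16). H3K27me3 covered 18.4 kb of it in Asxl1-/- cells and 692 kb in wild type, H3K4me2 107.2 kb in Asxl1-/- cells and 242.2 kb in wild type, and H3K4me3 75.4 kb in Asxl1-/- cells and 140.8 kb in wild type. Within the 16 domains, 98.1% of bases carried no mark in Asxl1-/- cells and 75.1% in wild type, and the H3K27me3 share of bases was 0% in Asxl1-/- cells and 19.9% in wild type. Vgll3 lies in the only domain there with H3K4 marks in both genotypes (chr16:65801600-65877799, 76.2 kb), with H3K4me3 on 11% in Asxl1-/- cells and 27.3% in wild type. The 91.4 kb domain next to it, with no gene, had H3K27me3 on 0% in Asxl1-/- cells and 20.4% in wild type. Robo2, an axon guidance receptor gene, has 3 domains, and H3K27me3 covered 0% of each in Asxl1-/- cells, against 92.8%, 78.2% and 0% in wild type. Cadm2, a cell adhesion gene, has 2 domains with no mark in either genotype. A further 7 domains stand close together (chr16:79759800-80046199) without a protein-coding gene.

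Another place with this pattern lies on chromosome 2. The 64.8 kb Cwc22 domain (chr2:77887200-77951999) had H3K4me2 on 13.3% in Asxl1-/- cells and 45.7% in wild type, and H3K4me3 on 13% in Asxl1-/- cells and 47.2% in wild type. The 26.4 kb domain after it, without a gene, had H3K27me3 on 0% in Asxl1-/- cells and 97.7% in wild type. Here too ASXL1 is wide in wild type and every mark that is present covers less in Asxl1-/-. Domains often had neighbours, since 176 of the 448 (39.3%) had another within 100 kb.

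Outside these places the domains of some chromosomes leaned one way, and the covered length of the whole chromosome is given beside them. Chromosomes 3, 4 and 13, whose H3K4me2 islands as a whole covered 0.532, 0.782 and 0.616 times as much in Asxl1-/- as in wild type, hold 47 of the 421 domains. H3K4me2 was at least 20 points lower in 27 of them and higher in 0, with medians of 53.7% in Asxl1-/- cells and 81.3% in wild type, and H3K4me3 was lower in 18 and higher in 0. Chromosomes 10 and 14, with whole-chromosome ratios of 1.35 and 1.24 for H3K4me2, hold 24 domains, of which H3K4me2 was higher in 7 and lower in 0 and H3K4me3 higher in 9 and lower in 0. Of the 7, 6 lie on chromosome 10, and of the 9, 6 do. Median H3K4me3 in these 24 was 71.6% in Asxl1-/- cells and 40.6% in wild type. Over all ASXL1 islands of chromosomes 3, 4 and 13 H3K4me2 was higher in 2.08% and lower in 42.9%, the same direction as in their domains. H3K4me3 was higher in 2.96% of these islands and lower in 19.03%, against 0% and 38.3% of the domains there. For H3K4me3 the direction was thus the same, but a larger share of domains than of islands was lower. Over the islands of chromosomes 10 and 14 H3K4me3 was higher in 12.6% and lower in 7.39%. H3K4me2 was higher in 8.33% of them and lower in 11.1%, against 4.59% and 24.6% of all autosomal ASXL1 islands. More of these islands were thus lower than higher for H3K4me2, unlike the domains of chromosomes 10 and 14. Ratio and domains also parted on chromosome 14, where the median H3K4me2 difference was -1.65 points, on chromosome 18 (ratio 1.12, -10.4 points, 3 domains lower and 0 higher) and on chromosome 9 outside the region (ratio 1.17, -7.14 points over 3 domains). On the remaining autosomes (350 domains) H3K4me2 was higher in 13 (3.71%) and lower in 71 (20.3%), against 4.88% and 21.2% of all their ASXL1 islands. H3K4me3 was higher in 36 (10.3%) and lower in 34 (9.71%), against 8.09% and 10.9% of these islands. The chromosomes were grouped with these results in view, the part of the chromosome-wide ratios in the domain values was not tested, and both come from the same lists. The domains themselves were spread unevenly, making up 5.30% of the ASXL1 islands of chromosome 15 (40 domains) and 0.466% of those of chromosome 7 (5 domains).

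**Figure D5:**
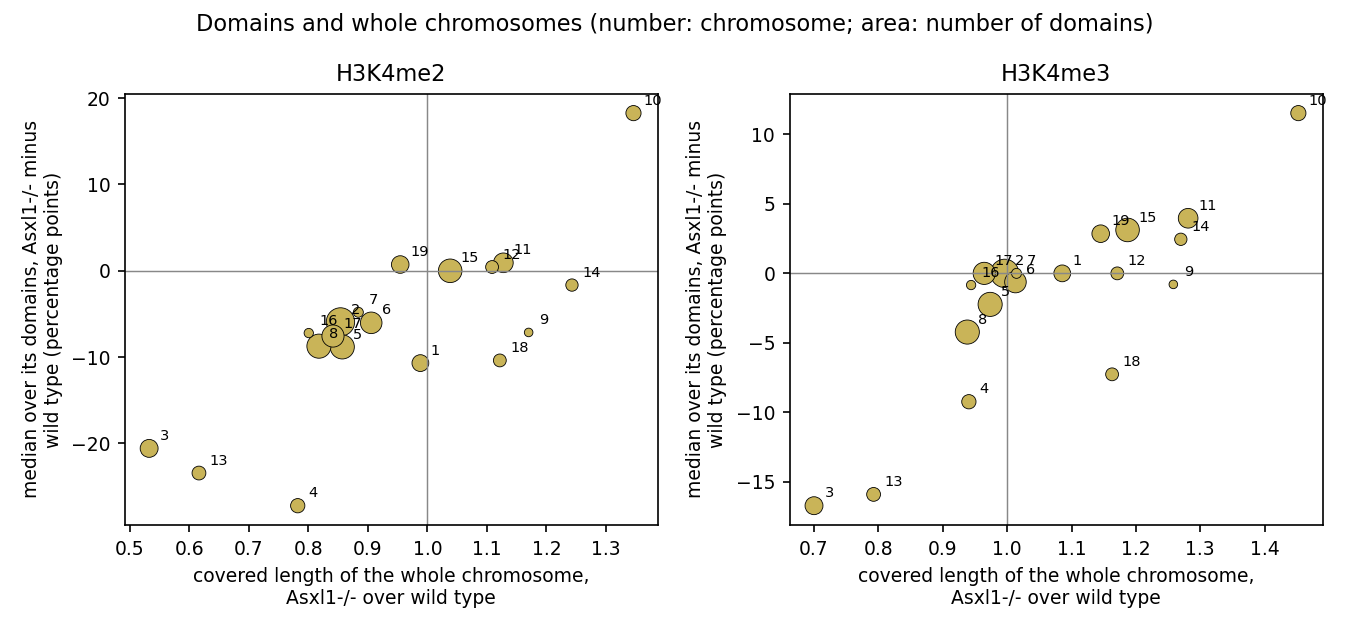
Median difference in covered share over the domains of each chromosome outside both regions (vertical axis, Asxl1-/- minus wild type, percentage points) against the covered length of the whole chromosome in Asxl1-/- over wild type (horizontal axis, ratio), for H3K4me2 and H3K4me3; numbers are chromosomes and the area of a point is its number of domains. For H3K4me2, chromosomes 3, 4 and 13 lie at the lower left and chromosome 10 at the upper right, at 18.3 points and a ratio of 1.35, while chromosomes 14 and 18 have ratios of 1.24 and 1.12 and lie below 0, at -1.65 and -10.4 points.

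Of the largest differences outside the chromosome 9 region, some lie on those chromosomes. The 4 domains with the largest H3K4me2 excess in Asxl1-/- are those of Stk11 (LKB1 kinase) with Cbarp on chromosome 10, at 98.4% in Asxl1-/- cells and 39.7% in wild type, of Hic1 (a growth-restraining transcription factor of mesenchymal progenitors) with Smg6, Mir132 and Mir212, at 91.8% and 47.3%, of Rela (an NF-kappa-B subunit) with Sipa1, at 95.3% and 53.8%, and of Triobp (an actin-bundling protein gene), at 93.3% and 53.0%. H3K4me3 was most in excess in the Stk11 domain (97.6% in Asxl1-/- cells and 33.3% in wild type), in that of Sbno2 (100% and 38.5%), in that of Lrp1 (a large endocytic receptor; 96.5% and 35.9% over 51.8 kb), and in that of Myo10 (a myosin of filopodia; 65.2% and 15.2%). Of these 7 domains, 3 lie on chromosome 10. The largest H3K4me2 deficits were in a 21.0 kb domain without a named gene on chromosome 2 (0% in Asxl1-/- cells and 65.7% in wild type), and in the domains of Lhfp on chromosome 3 (25.5% and 90.9%), of Trps1 (27.4% and 88.9%) and of Tshz1 with Zadh2 on chromosome 18 (36.1% and 96.8%). Trps1, a transcription factor of cartilage and bone growth, also had the largest H3K4me3 deficit, at 20.7% in Asxl1-/- cells and 84.4% in wild type over 27 kb (chr15:50865200-50892199). Other H3K4me3 deficits were those of Ecm1 (a matrix protein) with Tars2 and Mir7014 (0% and 53.6%) and of Kirrel (an adhesion protein gene; 25.9% and 72.8%).

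H3K27me3 was rare in wide domains, and outside the chromosome 9 region it covered at least 50% of 4 of them in Asxl1-/- cells and 9 in wild type. That is 0.915% and 2.06% of the 437 domains, against 4.91% and 6.23% of all autosomal ASXL1 islands. Over islands of 10 to under 20 kb it was 2.88% in Asxl1-/- cells and 3.22% in wild type. Nfatc2, a calcium-responsive transcription factor gene, had 96.7% in Asxl1-/- cells and 38.2% in wild type, the largest excess, and H3K4me2 there was 17.1% in Asxl1-/- cells and 44.7% in wild type. Rfx2, a transcription factor gene of ciliated cells, had 100% in Asxl1-/- cells and 69.8% in wild type, with H3K4me2 on 13.2% in Asxl1-/- cells and 53.5% in wild type. A domain with Jrk and Psca had 41.0% in Asxl1-/- cells and 0% in wild type, and that of Nenf, a secreted neurotrophic factor gene, 32.2% in Asxl1-/- cells and 0% in wild type. The Nfatc2 and Rfx2 domains thus carried more H3K27me3 and less H3K4me2 in Asxl1-/-. The 4 largest deficits are those of the domain beside Cwc22, of 2 Robo2 domains and of a 59.2 kb domain on chromosome 16 (0% in Asxl1-/- cells and 85.5% in wild type), which all lie in the places described above. Elsewhere the domain of Crip1 and Crip2, cysteine-rich LIM protein genes, had 0% in Asxl1-/- cells and 76.3% in wild type, and that of Ttc28 0% in Asxl1-/- cells and 59.3% in wild type.

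Hox genes, which set position along the body axis and are kept on or off by Trithorax and Polycomb proteins, gave 8 of 39 members in wide domains (20.5%, against 2.93% of all autosomal protein-coding genes and 54.7% in any ASXL1 island). They lie in 3 domains, so they are not independent, and the percentage over all genes is given as a yardstick only, here and below. In a HoxA domain with part of Hoxa3, Hoxa7, Hoxa9, Hoxa10 and Mir196b (chr6:52209200-52241599), H3K4me3 covered 100% in Asxl1-/- cells and 93.8% in wild type, and H3K27me3 0% in Asxl1-/- cells and 64.2% in wild type. The domain of Hoxc10, Hoxc11 and Mir196a-2 had H3K4me3 on 100% in Asxl1-/- cells and 97.3% in wild type, with no H3K27me3 in either. Both domains were thus nearly full of H3K4me3 in each genotype, and the miR-196 sequences printed above come from them.

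Genes of the Hippo effectors YAP and TEAD gave 7 of 24 members in domains (29.2%). They include the coactivators Yap1 and Wwtr1 (TAZ), the TEAD cofactors Vgll3 and Vgll4, the YAP regulators Ptpn14 and Amotl2, and Ccn1, a secreted target of the pathway. Wwtr1, in 22.4 kb on chromosome 3, had H3K4me2 on 25.9% in Asxl1-/- cells and 81.2% in wild type, and H3K4me3 on 0% in Asxl1-/- cells and 39.3% in wild type. Ptpn14, with Smyd2, had H3K4me2 on 13.3% of 42.2 kb in Asxl1-/- cells and 47.4% in wild type, and no H3K4me3 in either. Ccn1, also on chromosome 3, had H3K4me3 on 35.9% in Asxl1-/- cells and 52.7% in wild type. Amotl2, by contrast, had H3K4me3 on 73.8% in Asxl1-/- cells and 74.6% in wild type, a difference smaller than 1 point. Vgll4 has 2 domains, with H3K4me2 on 98.4% of one in each genotype and on 95% of the other in each. Yap1 and Vgll3 lie in the sparse regions of chromosomes 9 and 16, and Wwtr1 and Ccn1 on chromosome 3, whose marks were lower as a whole in Asxl1-/-.

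Extracellular matrix genes gave 10 of 34 autosomal members (29.4%). Besides Col1a1 and Fn1, Col1a2, the partner chain of type I collagen, lies in 45.2 kb, where H3K4me3 covered 23.5% in Asxl1-/- cells and 51.3% in wild type. Fbln2, a basement membrane protein gene, had H3K4me2 on 99.1% of 45 kb in Asxl1-/- cells and 78.2% in wild type. Col4a2, a basement membrane collagen gene, had H3K4me2 on 91.7% in Asxl1-/- cells and 73.2% in wild type, but H3K4me3 on 0% in Asxl1-/- cells and 26.8% in wild type. Timp2, an inhibitor of metalloproteinases, has 2 domains, of which the 37.6 kb one had H3K4me3 on 64.9% in Asxl1-/- cells and 48.4% in wild type. The matrix domains thus leaned in both directions. Of the 2 collagen I chains, Col1a2 had the lower H3K4me3 share in Asxl1-/- cells, while the Col1a1 domain was nearly full in both genotypes.

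Contractile and cytoskeletal genes gave 7 of 29 (24.1%). Myh9, the gene for a nonmuscle myosin heavy chain, lies in 57.4 kb, where H3K4me3 covered 65.5% in Asxl1-/- cells and 46.3% in wild type. Tagln2, an actin-binding protein gene, had H3K4me3 on 59.7% in Asxl1-/- cells and 26.6% in wild type, and H3K27me3 on 23.4% and 0% in the same order. Mrtfa, the coactivator of serum response factor, had H3K4me2 on 38.8% in Asxl1-/- cells and 70.1% in wild type. Filip1l and Actn4 differed by under 10 points for each H3K4 mark, at 68.9% and 93.1% for H3K4me2 in Asxl1-/- cells against 76.5% and 95.1% in wild type. Lmna, described above, had the widest domain of the list.

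Immediate early and stress genes, some of which cells switch on within minutes of a stimulus, gave 7 of 24 (29.2%). In the domains of all 7 H3K4me3 was no more than 1 point lower in Asxl1-/- cells, which holds for 229 of the 421 domains (54.4%). That limit of 1 point was not among the planned rules, so this is a description of these 7 only. Fosl1, an AP-1 subunit gene, lies in 55.0 kb with Cfl1 and others, where H3K4me3 covered 92.7% in Asxl1-/- cells and 67.6% in wild type. Nr4a1, an orphan nuclear receptor gene, had 71.8% of 47.6 kb in Asxl1-/- cells and 37.8% in wild type. Zfp36, whose product destabilises messenger RNA, had 93.8% in Asxl1-/- cells and 86.0% in wild type. Fosl2 stood at 38.1% in Asxl1-/- cells and 37.2% in wild type, Junb at 92.9% in each, and Ier3 at 63.3% and 63.8%. Jund, the remaining AP-1 gene, carried H3K27me3 on 56.7% of its domain in Asxl1-/- cells and 41.7% in wild type, beside H3K4me3 on 39.4% and 38.6%. The spread between cultures in such stimulus-dependent genes is not known, since each genotype is 1 library.

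Mesenchymal transcription factors gave 6 of 40 (15%). Prrx2, a homeobox gene of limb and craniofacial mesenchyme, had H3K4me3 on 15.5% of 38.8 kb in Asxl1-/- cells and 41.8% in wild type. Twist2, a regulator of osteoblast differentiation, had 0% in Asxl1-/- cells and 15% in wild type. Nr2f2, the nuclear receptor COUP-TFII, had 75.3% in Asxl1-/- cells and 83.8% in wild type, and Tbx15, a T-box gene of skeletal mesenchyme, 81.7% in Asxl1-/- cells and 89.9% in wild type. Snai1, the repressor of the epithelial state, had 51.8% in each genotype. Of the 6, only the Hic1 domain had the higher H3K4me3 share in Asxl1-/-, at 56.4%, against 45.5% in wild type.

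Signalling regulators gave 5 of 37 (13.5%). Smad7, the inhibitory SMAD of the TGF-beta pathway, had H3K4me3 on 97.1% in Asxl1-/- cells and 79.4% in wild type, while Smad3, a SMAD that carries the signal, had 23.7% in Asxl1-/- cells and 47.4% in wild type. Notch2, a Notch receptor gene on chromosome 3, had 0% in Asxl1-/- cells and 31.1% in wild type. Stromal progenitor and niche genes gave 3 of 24 (12.5%). These are Cd44, a hyaluronan receptor gene, with H3K4me3 on 21.4% in Asxl1-/- cells and 36.2% in wild type, Csf1, the macrophage growth factor gene, with 52.5% and 61.9%, and Eng, a TGF-beta coreceptor gene, with 66.7% and 40.4%. Classic niche genes such as Cxcl12, Kitl and Lepr met no wide domain. Long noncoding RNA and microRNA hosts gave 4 of 18 (22.2%), named above, and housekeeping genes 2 of 18 (11.1%), Tubb5 and Eef2. The chromosome 9 list gave 12 of 22, which the choice of that interval fixes.

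At the width limit, 17 domains measured exactly 20000 bp and 10 islands fell 1 window short of it. Actn1, the alpha-actinin gene, is just inside the limit, with H3K4me3 on 66.0% in Asxl1-/- cells and 25% in wild type, as is Tgfbi, a TGF-beta-induced matrix gene, with 33.0% in Asxl1-/- cells and 67.0% in wild type, and a domain without a named gene at chr13:51959600-51979599, with 31.0% and 46.0%. Just outside, at 19.8 kb, are the islands of Klf6, with H3K4me3 on 40.4% in Asxl1-/- cells and 59.6% in wild type, of Col6a1, with H3K27me3 on 67.7% in Asxl1-/- cells and 0% in wild type, and one on chromosome 1 without a gene, with H3K4me2 on 13.1% and 5.05%. By width class, median H3K4me3 in the 421 domains was 35.9% in Asxl1-/- cells and 38.5% in wild type under 25 kb, 29.5% and 36.1% from 25 to under 40 kb, and 38.1% and 38.8% from 40 kb.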

How the data were processed

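Chromatin immunoprecipitation libraries for ASXL1, H3K4me2, H3K4me3 and H3K27me3 were made from MSPCs. The submitters' processing notes name BWA, SICER 1.1 and the mm10 build, and the settings of the island caller, its control and its error limit were not stated in any label or header. The authors' deposited lists give only positions (chromosome, start and end) for 7 of the 8 samples, on a grid of 200 bp, with no count, score or p-value, so depth and its precision are unknown.

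From these positions, domains were taken by width from the autosomal ASXL1 islands, and the percent of each domain inside islands of a mark was computed by base. Overlap means at least 1 bp. The shares were checked with bedtools 2.31.1, and 0 of 2688 values differed. A domain was called at 20 percentage points between genotypes, beside the same rule over all autosomal ASXL1 islands. Genes, promoters and microRNAs came from RefSeq tables of GRCm38.p6, in which 16457 of 20665 autosomal protein-coding genes have a start. With 1 library per target and genotype, no test was made. Intervals for shares of domains are exact Clopper-Pearson at 95%. Python 3.11.15, numpy 2.4.6, pandas 2.3.3, scipy 1.17.1 and matplotlib 3.10.9 were used.

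The members, the gene lists and the groups of chromosomes were chosen with earlier results of these data known. Named domains are the 12 widest outside and the 6 widest inside the chromosome 9 region, the 4 largest differences each way per mark, and 3 on each side of the width limit. Up to 6 members per gene list follow, widest domain first. Members beyond that, the other chromosome 9 domains, and those of Fn1, Crip1 and Crip2, Ttc28, Cadm2, Mir21a and the miR-23 clusters were chosen after their values were seen. Alternatives changed the width limit, the call rule, the gene rule, the joining of islands, the covered length of the lists and the chromosomes. A few domains and genes that this rule names are not reported here.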

Additional observations from a re-analysis of the deposited data

How the results depend on the processing

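Of 126 combinations of 18 results and an alternative, 104 stayed within 1.5 times or within the 95% interval of the value, and 22 moved. These results are counts, shares and widths, so none could change sign. Some of the 104 could not move. Joining H3K4 islands leaves the H3K27me3 results as they are, and the cut to equal covered length alters only the longer list of each mark. The H3K27me3 medians were 0 under every alternative. The count of 104 is therefore no measure of how firm the results are. With chromosomes 3, 4, 10, 13 and 14 left out, H3K4me3 was higher in 9.55% and lower in 9.28%, against 10.0% and 11.8% over all domains, so the larger share changed sides. With H3K4 islands joined across gaps of up to 600 bp, chosen after seeing the data for the starts, the median island over starts was 19.2 kb in Asxl1-/- and 20.6 kb in wild type for H3K4me2, and 13.2 kb in Asxl1-/- and 11.2 kb in wild type for H3K4me3, with the same order as before. A limit of 15000 bp gave 976 domains over 1190 protein-coding genes, and one of 30000 bp gave 139 domains over 190 genes, with a median H3K4me3 share of 25.1% in Asxl1-/- and H3K4me2 higher in 2.16%. Asking for at least 50% of the gene body inside left 347 genes. Calls at 10 points were 11.6% higher and 38.6% lower in Asxl1-/- for H3K4me2 and 18.8% and 27.2% for H3K4me3. Calls at 30 points were 1.34% and 13.2% for H3K4me2, 4.91% and 5.36% for H3K4me3, and 0.893% and 2.68% for H3K27me3. Without the chromosome 9 and 16 regions, an alternative chosen after seeing the data, H3K27me3 was lower in 2.61%. The fewer or more domains and the stricter or looser limit are what these alternatives are made of. No paired analysis was possible because each target and genotype is 1 library. Depth is unknown for each library, so a missing or narrower island does not show that a mark was absent or weaker, and the part of depth in these values was not tested.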
